A study of Sus scrofa with 2 samples.

Results

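ATF3, GADD45B, CASP6 and BID are stress response and cell death genes, picked by symbol with their values in these data already known. Each symbol stood on 1 entry of the deposited table, so the group held 4 genes of 27987 entries. All 4 reached a mean of at least 1 RPKM (reads scaled to gene length and library total), as did 13191 entries in all, of which 6990 carried a symbol. Their values below are descriptions of 2 libraries and carry no test.

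The libraries were of messenger RNA from longissimus dorsi, a long muscle along the spine, of crossbred pigs labelled DLY (Duroc boars on Yorkshire-Landrace sows). All animals were barrows, which are castrated males, at 79.0 ± 1.5 kg, and the 16 of them came from 8 litters. The control group, CON, had 8 pigs held at a constant 22 °C, and the heat group, H30, had 8 pigs held at a constant 30 °C, both for 21 days. Age is not given in the labels, nor is whether the RNA of several pigs went into a library. With 1 library per group there is no spread between pigs, and temperature, animals, handling and library cannot be told apart.

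ATF3 is a transcription factor of the bZIP family that cells make quickly after many kinds of stress, among them the integrated stress response and stress kinases. GADD45B is a small stress-induced protein that binds kinases of the stress MAP kinase cascade and proteins of the cell cycle and of DNA repair. In programmed cell death, initiator caspases switch on executioner caspases, of which CASP6 is one and cleaves nuclear lamins. BID links the arms of this system: after cleavage by CASP8 it moves to mitochondria, where it triggers BAX and BAK1 to release cytochrome c.

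ATF3 and CASP6 were higher in the heat library, while GADD45B and BID were lower. Beside each RPKM stands a 95% counting interval, from the smallest whole reads that give the deposited values. The read numbers are minimums, which by itself makes the intervals wide rather than narrow. The reads were also amplified by PCR and carry no molecular identifiers, so copies cannot be told from separate fragments. Such copies could make the intervals too narrow, and their share was not tested. The intervals cover counting error only and hold no spread between pigs. They also take the deposited scaling of the libraries as given, so counts of intervals above and below 1 depend on it.

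ATF3 (ENSSSCG00000015595) stood at 52.7 RPKM in the control library (49.7 to 55.9, Poisson interval) and at 84.7 RPKM in the heat library (80.8 to 88.7). These levels rest on at least 1158 and 1801 reads, the deepest count among the 4 genes. The intervals lay far apart, and the RPKM ratio of heat over control was 1.61 (Clopper-Pearson interval 1.49 to 1.73). ATF3 was the 954th highest entry of CON and the 632nd of H30.

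CASP6 (ENSSSCG00000009140) stood at 1.84 RPKM in the control library (1.39 to 2.39) and at 3.73 RPKM in the heat library (3.06 to 4.50). Its ratio was 2.03 with an interval of 1.45 to 2.86, on at least 55 and 108 reads. CASP6 had the largest ratio of the 4 genes and also the widest interval, and the lower end of that interval was below the ratio of ATF3. In rank it went from 10521st to 7741st.

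GADD45B (ENSSSCG00000022689) stood at 6.86 RPKM in the control library (6.07 to 7.72) and at 4.86 RPKM in the heat library (4.19 to 5.60). The ratio was 0.708 (0.585 to 0.856) on at least 274 and 188 reads, which is a level 1.41-fold lower. The library intervals did not overlap.

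BID (ENSSSCG00000000769) stood at 3.45 RPKM in the control library (2.81 to 4.20) and at 2.25 RPKM in the heat library (1.73 to 2.88). Its ratio was 0.651 (0.467 to 0.900) on at least 100 and 63 reads, a level 1.54-fold lower. Here the intervals of the libraries overlapped slightly, although the interval of the ratio lay below 1. In bulk tissue such as this, fewer cells of a type and less RNA per cell cannot be told apart for any of the 4 genes.

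**Figure D1:**
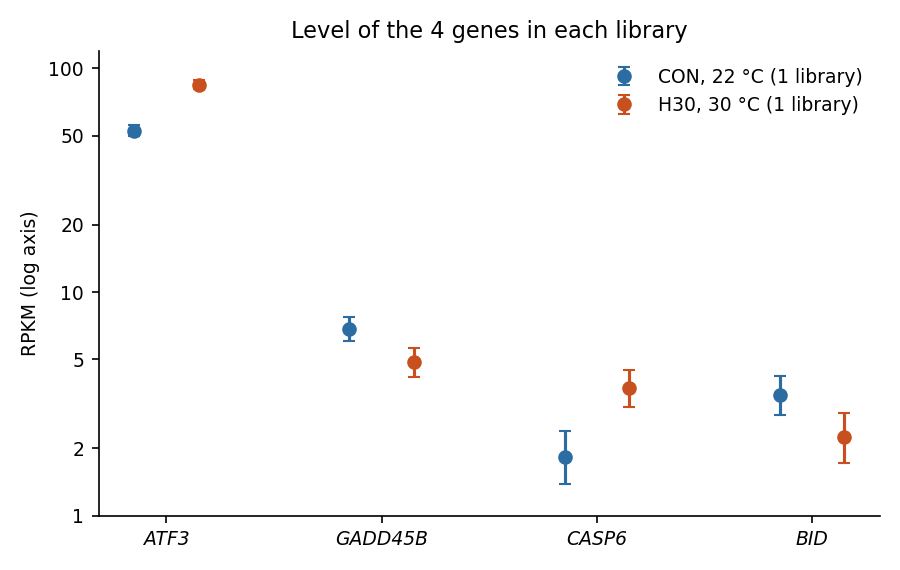
RPKM (log axis) of ATF3, GADD45B, CASP6 and BID in the control (blue) and heat (orange) library, 1 library each, with bars for the 95% Poisson interval of the reads. ATF3 is the highest gene in both libraries, and CASP6 and BID change places, at 1.84 and 3.45 RPKM in CON and at 3.73 and 2.25 RPKM in H30.

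RPKM is scaled to gene length, so levels may be compared between genes as far as the lengths used are right. Those lengths are not given, and the counting intervals leave out any error in them. In the control library the order was ATF3, GADD45B, BID and CASP6. In the heat library CASP6 stood above BID. The ratio of CASP6 to BID was 0.532 (0.376 to 0.747) in CON and 1.66 (1.20 to 2.30) in H30, and neither interval held 1. Both genes were picked with CASP6 higher and BID lower already known, so their change of order is a description only. GADD45B stood 3.73-fold (2.78 to 5.08) above CASP6 in CON and 1.30-fold (1.02 to 1.67) in H30, close to the counting error. ATF3 stood 7.69-fold above GADD45B in CON and 17.4-fold in H30.

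For a comparison with other genes, differences were put on the scale log2((heat RPKM + 1)/(control RPKM + 1)), which understates the difference of low genes. On it ATF3 was at 0.67, CASP6 at 0.74, GADD45B at -0.42 and BID at -0.46. The median of all genes measured was 0.05, with 95% of genes between -0.57 and 0.66. ATF3 and CASP6 were thus at least 1.5-fold higher, as were 3.44% of genes measured, while 2.37% were at least 1.5-fold lower and GADD45B and BID did not reach that size. This split of 454 genes higher and 313 lower became 348 and 384 after rescaling by a trimmed mean of log ratios. Of the 6990 measured entries with a symbol, as the 4 genes have, 87 were at least 1.5-fold higher and 41 lower. None of the 4 was 2-fold apart on this scale, a size reached by 0.629% of genes upward and 0.584% downward. Log2 ratios above that of ATF3 were found for 314 entries and above that of CASP6 for 236. Ratios below that of BID were found for 531 entries and below that of GADD45B for 617. Since the 4 genes were picked with these ratios known, nothing is read from their place.

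How common such sizes were depended on the level. In tiers of mean RPKM, set after the values were seen, 5.27% of 6775 genes between 1 and 5 RPKM were at least 1.5-fold higher, the tier of CASP6. Among 1012 genes of at least 50 RPKM, the tier of ATF3, 8 were (0.791%), and 13 were at least 1.5-fold lower (1.28%). BID lies in the lowest tier, where 3.6% were at least 1.5-fold lower, and GADD45B in the tier from 5 to 50 RPKM, where 1.04% were and 1.65% were at least 1.5-fold higher.

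**Figure D2:**
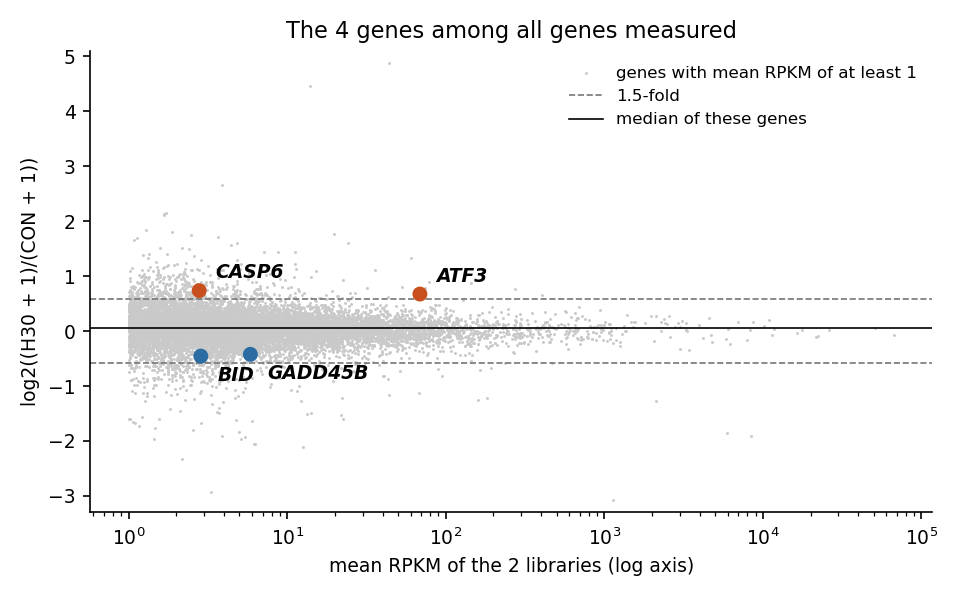
Log2((H30 + 1)/(CON + 1)) against the mean RPKM of the 2 libraries (log axis) for 13191 genes (grey), with the 4 genes marked, dashed lines at 1.5-fold and a solid line at the median of 0.05. CASP6 (0.74) lies among the widely spread low genes and ATF3 (0.67) where few genes are as far from the median, while BID (-0.46) and GADD45B (-0.42) lie inside the lower dashed line.

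Among the 14 measured genes listed as relatives and bZIP partners of ATF3, ATF5 was lower and no other had a counting interval that excluded 1. These factors bind DNA in pairs, and ATF3 can pair with several of them. Of 28 listed, 16 were matched to the table and 14 measured, with a median log2 ratio of 0.00 (all genes 0.05) and none at least 1.5-fold apart. The counting interval of the RPKM ratio held 1 for 13 of the 14, as it did for 8782 of 12666 genes with an interval. ATF5, a relative of ATF4 that is made under amino acid and protein folding stress, was the exception, at 9.40 and 6.18 RPKM (ratio 0.657, 0.554 to 0.779), and was at least 1.5-fold lower with a pseudocount of 0.1 (log2 ratio -0.60) and after rescaling by a trimmed mean (-0.61). The highest were BACH1, a repressor of antioxidant genes (3.51 and 4.23 RPKM), and MAFF, a small Maf factor (3.72 and 4.43), and next lowest to ATF5 was CREB5 (1.39 and 1.11). JDP2, ATF4, DDIT3 and CREB1 were not matched and are not analysed here.

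Immediate early genes, which like ATF3 are switched on within minutes of a stimulus, were split. Of 34 listed, 21 were matched and 17 measured. Above 0 were 9, and below 0 were 8, where 58.8% and 41.2% of all genes measured lay. They had a median of 0.05, and none was 1.5-fold apart. The interval of the ratio lay above 1 for 5 and below 1 for 3, where over all genes with an interval it did so for 20.3% and 10.4%. EGR1, a zinc finger factor, was the highest at 4.55 and 7.12 RPKM (log2 ratio 0.55, RPKM ratio 1.56 with an interval of 1.36 to 1.80). It passed 1.5-fold with a pseudocount of 0.1 (0.63) and when rescaled without the 10 highest genes (0.59). MYC came next at 2.66 and 3.94 RPKM (log2 ratio 0.43). The lowest were the matrix protein gene CCN2, at 9.93 and 7.73 RPKM, and IER2, at 5.85 and 4.60 RPKM (a minimum of 46 and 35 reads). FOS and JUNB, parts of the AP-1 factor and singled out after their values were seen, were at 22.1 and 26.9 RPKM and at 4.73 and 6.12 RPKM. JUN was not matched.

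**Figure D3:**
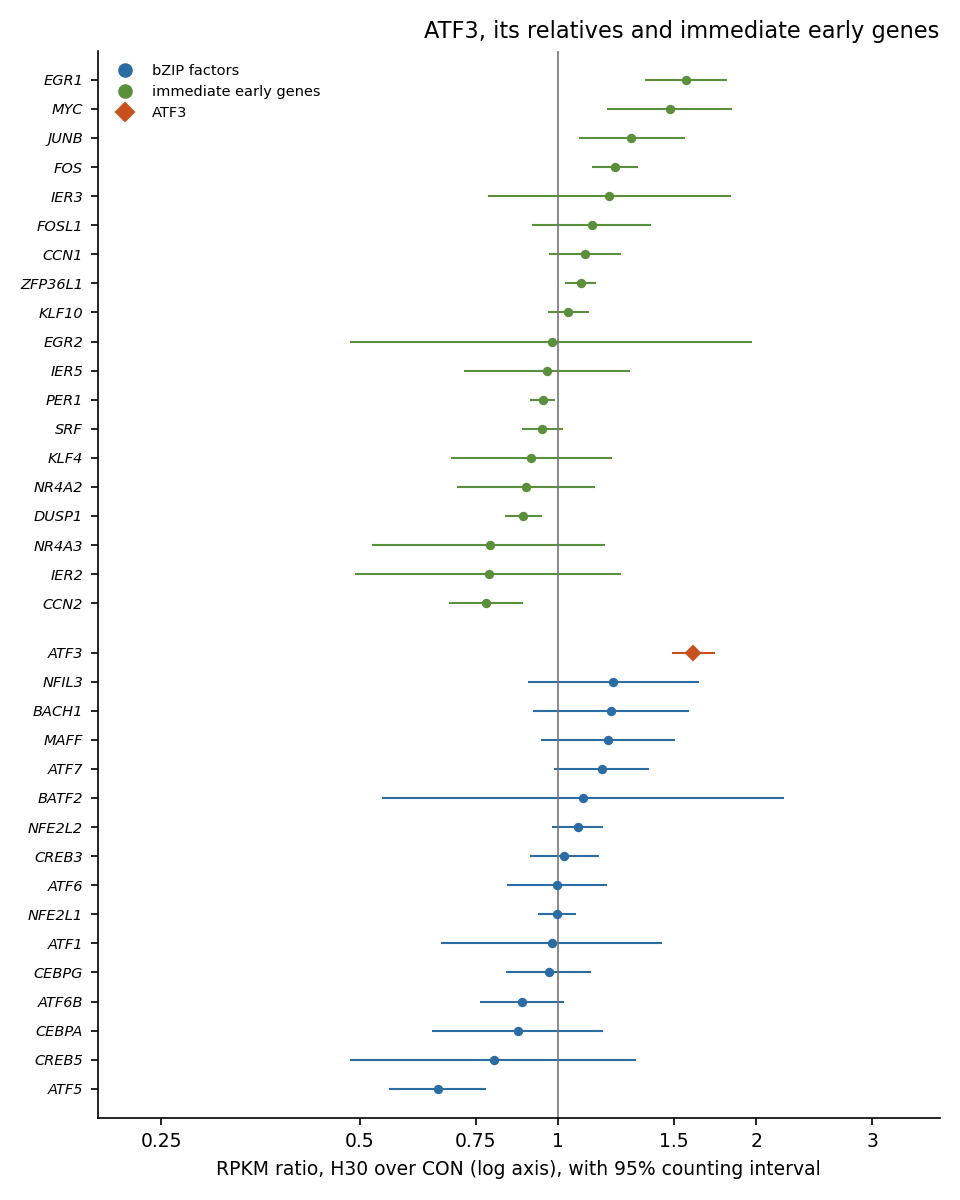
RPKM ratio of heat over control (log axis) with its 95% counting interval for bZIP factors (blue), immediate early genes (green) and ATF3 (orange diamond), for genes with at least 20 reads in all, those under 1 RPKM included. ATF3 (1.61) and EGR1 (1.56) have the highest ratios and ATF5 (0.657) the lowest, and most intervals of the bZIP factors hold 1.

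The integrated stress response slows protein synthesis through phosphorylation of eIF2 and raises ATF4, which in turn can raise ATF3. Of 35 listed genes 22 were matched and 20 measured. Above 0 were 11, where 58.8% of all genes measured lay. The list had a median of 0.06, and none was at least 1.5-fold apart. Highest were PPP1R15B and PPP1R15A, the subunits that direct a phosphatase to eIF2, at 3.74 and 4.93 RPKM (ratio 1.32, 1.16 to 1.50) and at 9.17 and 11.4 RPKM (1.25, 1.11 to 1.40). On the low side, next to ATF5, stood ASNS, which makes asparagine and is a known ATF4 target, at 15.9 and 13.0 RPKM (0.819, 0.747 to 0.898).

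GADD45B passes stress signals to kinases, and of its 14 listed relatives and partners 8 were matched and 5 measured. All 5 were above 0, as were 58.8% of all genes measured. Of the matched partners under a mean of 1 RPKM, TET3 and CDK1 were above 0. CCNB1 was below, at 0.317 and 0.102 RPKM (ratio 0.323, 0.0924 to 0.922) on at least 16 and 5 reads. The other family members, GADD45A and GADD45G, were not matched. MAP3K4, the kinase that GADD45 proteins bind and activate, stood at 2.50 and 3.68 RPKM (log2 ratio 0.42, RPKM ratio 1.47 with an interval of 1.15 to 1.90), so it lay on the other side of its control level than GADD45B. MAP2K7, a kinase that GADD45B binds and inhibits, was at 19.9 and 22.5 RPKM, and MAPK14, the stress kinase further down, at 36.9 and 40.1. TDG, a DNA glycosylase, was at 1.88 and 2.15 RPKM. TET1, an enzyme of DNA demethylation, was the only one at least 1.5-fold higher (0.680 and 1.58 RPKM, log2 ratio 0.62), but on at least 4 and 9 reads, and its counting interval (0.648 to 10.3) holds 1. On centring on the median of all genes its value was under 1.5-fold.

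In the wider stress MAP kinase cascade 12 of 16 measured genes were above 0 and 10 above the median of all genes, with a median of 0.12 and no gene 1.5-fold apart. The interval lay above 1 for 8 of the 15 genes that had one and below 1 for 2, beside 20.3% and 10.4% of all genes with an interval. These counts hold for the deposited scaling, while the trimmed mean of log ratios put heat over control at 1.06. Lower ends under 1.06 were those of TAB2 (1.02), MAPK14 (1.02), MAP2K7 (1.02), MAPK9 (1.01) and MAPKAPK2 (1.05). Those of MAP2K4 (1.07), MAPKAPK3 (1.09) and MAP3K4 (1.15) were above it. MAP3K4 and MAPKAPK3, a kinase below MAPK14 (13.0 and 15.6 RPKM), were the highest. The phosphatases DUSP10, at 19.6 and 14.4 RPKM (ratio 0.735, 0.647 to 0.834), and DUSP1, at 87.9 and 77.8 RPKM, which switch these kinases off, were the lowest.

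Genes of the DNA damage response, which can raise both ATF3 and pro-death genes, had a median of 0.09. Of 38 listed, 24 were matched and 18 measured. Above 0 were 12, where 58.8% of all genes measured lay, and none was at least 1.5-fold apart. SESN1, a stress-induced inhibitor of growth signalling, was the highest at 35.0 and 49.2 RPKM (log2 ratio 0.48), followed by ATM, the kinase that senses DNA breaks, at 0.981 and 1.53 RPKM (0.35, or 0.59 and past 1.5-fold with a pseudocount of 0.1). TP53INP2, an autophagy regulator, was at 11.5 and 10.3 RPKM and the repair gene DDB2 at 19.9 and 17.9. CDKN1A and BAX were not matched.

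CASP6 could be set beside 6 other caspases, most of them at very low levels. Matched were the initiators CASP2, CASP8, CASP9 and CASP10 and the others CASP1 and CASP14. Only CASP2 reached a mean of 1 RPKM, at 3.02 and 3.52 (ratio 1.16, 0.771 to 1.76). The following were under that level and are given after their values were seen. CASP9, the initiator of the mitochondrial route, stood at 0.627 and 1.25 RPKM (ratio 1.99, 1.43 to 2.80) on at least 56 and 108 reads, nearly the ratio of CASP6. CASP8, which cleaves BID, stood at 0.560 and 0.279 RPKM (0.498, 0.243 to 0.974) on at least 29 and 14 reads. CASP10, its close relative in death receptor signalling, was at 1.22 and 0.750 RPKM (0.616, 0.399 to 0.941). CASP6 and CASP9 lay above their control level, and BID, CASP8 and CASP10 below it. The intervals exclude 1 for all 5, narrowly so for CASP8, but these 5 were singled out with their values known. Over all genes measured with an interval, it lay above 1 for 20.3% and below 1 for 10.4%. Those shares leave out genes under a mean of 1 RPKM, such as CASP8, CASP9 and CASP10. The interval of CASP2 holds 1. CASP1 was at 0.594 and 0.711 RPKM, with an interval that holds 1, and CASP14 was listed at 0 in both libraries.

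Substrates of caspases were spread around their control level, with 5 of 10 measured above 0, beside 58.8% of all genes measured. They had a median of -0.04, and none was at least 1.5-fold apart. LMNA, the lamin that CASP6 is known to cut, stood at 44.5 and 40.1 RPKM (ratio 0.901, 0.849 to 0.957), singled out for that role. LMNB1 (2.39 and 3.19 RPKM) and APP (36.0 and 40.6) were the highest, and LMNB2 (5.11 and 4.13) and PARP1 (13.3 and 11.9) the lowest.

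BID belongs to the BCL2 family, whose pro-death and pro-survival branches were matched only in part. Of 14 other pro-death genes 6 were matched and 3 measured. BAK1, the pore former that BID activates, was at 4.04 and 3.33 RPKM (ratio 0.824, 0.706 to 0.962). BAD was at 8.71 and 8.14 RPKM (0.934, 0.755 to 1.16). BNIP3L, which tags mitochondria for autophagy, was at 6.05 and 7.20 RPKM (1.19, 1.05 to 1.34). BID was thus lower than its control level by more than any of these 3, though its interval overlaps those of BAK1 and BAD. Of the matched genes under a mean of 1 RPKM, BBC3 (1.09, 0.669 to 1.78) and PMAIP1 (1.11, 0.699 to 1.78) had intervals that hold 1. So did BCL2L14, on at least 1 and 2 reads. The only pro-survival gene matched of 6 was BCL2L2, at 45.2 and 43.4 RPKM, for which no interval was had.

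Further down the mitochondrial route, 6 of 9 measured genes of the apoptosome and of mitochondrial release were above 0 and 5 above the median of all genes, with a median of 0.08 and none at least 1.5-fold apart. DIABLO, which neutralises inhibitors of caspases, was the highest at 14.6 and 17.4 RPKM (ratio 1.20, 1.06 to 1.35), followed by PPIF at 7.89 and 8.88. CYCS, cytochrome c, was the lowest at 170 and 152 RPKM (0.890, 0.855 to 0.927), followed by AIFM1 at 35.5 and 33.2. APAF1, the scaffold on which CASP9 is activated and singled out for that role, was at 0.965 and 1.08 RPKM, with a minimum of 25 and 27 reads.

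Inhibitors of apoptosis were above 0 in 7 of 8 measured and above the median of all genes in 5, with a median of 0.14. TMBIM4, a membrane protein that protects cells from death, was the only one at least 1.5-fold higher, at 7.91 and 13.1 RPKM (log2 ratio 0.66, RPKM ratio 1.65 with an interval of 1.37 to 1.99). After rescaling by a trimmed mean it was under that size. BIRC3, a ubiquitin ligase that blocks death receptor signals, was at 10.1 and 12.6 RPKM (1.26, 1.10 to 1.44). The lowest were FAIM, at 1.10 and 1.01 RPKM, and BIRC6, at 4.91 and 4.96.

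**Figure D4:**
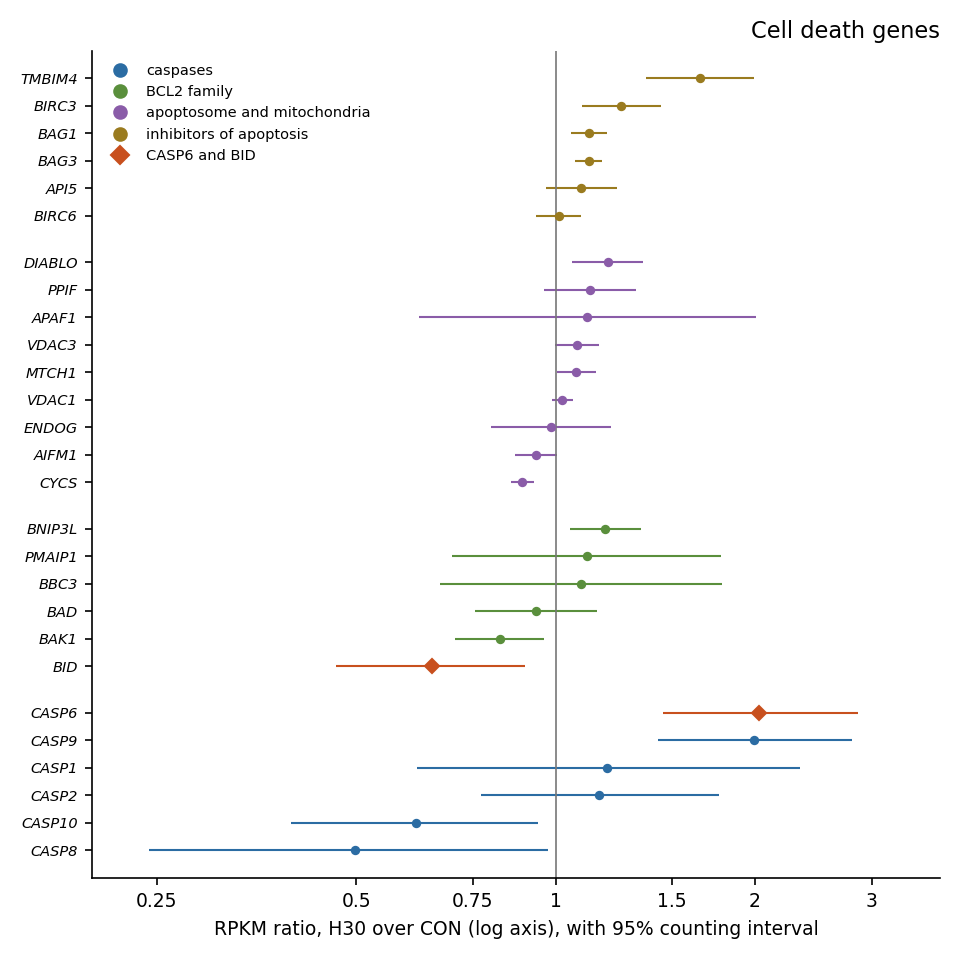
RPKM ratio of heat over control (log axis) with its 95% counting interval for caspases (blue), the BCL2 family (green), genes of the apoptosome and mitochondria (purple), inhibitors of apoptosis (brown), and CASP6 and BID (orange diamonds), for genes with at least 20 reads in all, those under 1 RPKM included. CASP6 (2.03), CASP9 (1.99) and TMBIM4 (1.65) are at the right, and CASP8 (0.498), CASP10 (0.616) and BID (0.651) at the left.

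Of 22 death receptor genes and adaptors listed, 12 were matched and 9 measured. Above 0 were 5, where 58.8% of all genes measured lay, and the median was 0.05. TNFRSF12A, the receptor of the cytokine TWEAK and known for its part in muscle wasting and repair, was the only one at least 1.5-fold lower. It stood at 122 and 68.4 RPKM (log2 ratio -0.82, RPKM ratio 0.562 with an interval of 0.520 to 0.607), on at least 1830 and 996 reads. FAS was next lowest at 1.24 and 1.05 RPKM. The highest were the death receptor TNFRSF21 (7.45 and 8.89 RPKM) and CFLAR, a decoy that blocks CASP8 (6.996 and 7.96). FASLG, the ligand of FAS, was listed at 0 in CON and at 0.0602 RPKM in H30.

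Necroptosis and pyroptosis are forms of lytic death, and of 18 listed genes 10 were matched and 5 measured. The cytokine IL18 was at 1.31 and 2.56 RPKM (log2 ratio 0.62, RPKM ratio 1.95 with an interval of 1.20 to 3.23), the only one at least 1.5-fold apart, and on centring on the median its value was under that size. GSDMD, whose cut form opens pores in the membrane, was at 3.40 and 2.35 RPKM (0.691, 0.524 to 0.908). RIPK1 (7.31 and 7.59 RPKM), RIPK3 (1.79 and 1.58) and ZBP1 (1.75 and 1.85) had intervals that hold 1.

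Counting each gene once, the 15 lists held 263 genes besides ATF3, GADD45B, CASP6 and BID. Of these 159 were matched and 127 measured. At least 1.5-fold higher were 3 (2.36%, beside 3.44% of all genes measured) and at least 1.5-fold lower was 1 (0.787%, beside 2.37%). All list genes carry a symbol, while the shares over all genes measured include entries without one. Of the 6990 measured entries with a symbol, 87 were at least 1.5-fold higher and 41 lower. The median log2 ratio of the 127 list genes was 0.08, beside 0.05, with 78 genes above 0 and 68 above the median of all genes. The interval of the ratio lay above 1 for 35 of 123 (28.5%) and below 1 for 18 (14.6%), where all genes gave 20.3% and 10.4%. Shares of intervals hold for the deposited scaling and were not counted under the other scalings.

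**Figure D5:**
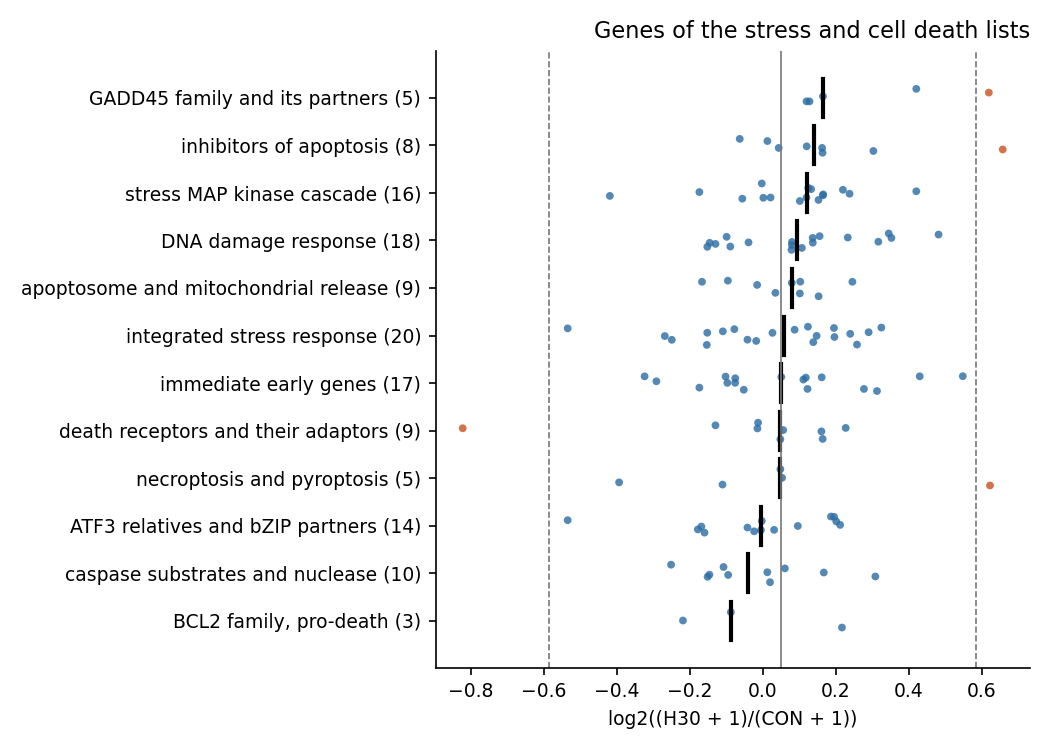
Log2((H30 + 1)/(CON + 1)) of each measured gene (points, with the number of genes in brackets) in the lists with at least 3 measured genes, with black bars at list medians, a grey line at the median of all genes and dashed lines at 1.5-fold. The medians run from -0.09 to 0.16, and the orange points past 1.5-fold are TET1, TMBIM4 and IL18 upward and TNFRSF12A downward.

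Markers of other cells that can express these genes were compared as summed RPKM over the matched markers. Macrophage markers (10 of 14 matched) summed to 50.7 in CON and 50.3 in H30, with LYZ at 1.09 and 3.295 and TYROBP at 11.3 and 7.83 on opposite sides of control. Lymphocyte markers (11 of 15) summed to 32.2 and 30.2, led by CCL5 at 22.6 and 18.3, while the others together were at 9.67 and 11.8, and 7 of the 11 were above 0 on the log2 ratio scale. Neutrophil and mast cell markers (4 of 9) summed to 2.37 and 3.38, led by KIT at 1.81 and 1.88, with MPO listed at 0 in both. The others together were at 0.562 and 1.50, on few reads (S100A8 at least 3 and 10, ELANE at least 1 and 2). Endothelial markers (6 of 10) summed to 156 and 172, of which PECAM1 made 111 and 127 and the others together 45.2 and 45.4. Adipocyte markers (5 of 9) summed to 54.2 and 52.7, of which PLIN4 made 33.7 and 39.6 and the others 20.5 and 13.0, with CIDEC (ratio 0.460, 0.361 to 0.583) and PLIN1 (0.661, 0.450 to 0.962) below control. Fibroblast markers (8 of 9) summed to 975 and 881, and red blood cell markers (4 of 6), led by HBB, to 90.6 and 114. Muscle fibre markers (7 of 12), led by ACTA1, summed to 144949 and 138399, which fits the labelled tissue. The part of these cells in the values of ATF3, GADD45B, CASP6 and BID was not tested.

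Reads of overlapping genes cannot be told apart, since the kit is not described as marking strand. In the RefSeq annotation of Sscrofa11.1, used here only for the order of genes, the span of BID overlaps the long noncoding RNA LOC110260761, which is not analysed here, and MICAL3 follows it (6.16 and 5.64 RPKM). No gene overlapped ATF3, GADD45B or CASP6. On one side of GADD45B lies LMNB2 (log2 ratio -0.25) and on one side of CASP6 lies MCUB (1.01 and 1.18 RPKM, 0.12). The genes on their other sides, the one before BID and both neighbours of ATF3 are not analysed here.

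The genes most like each of the 4 were taken by distance between log2(RPKM + 1) values, which rests on 2 libraries and so on level and ratio alone. Nearest to ATF3 was CLU, which encodes the secreted chaperone clusterin, at 54.3 and 94.5 RPKM (distance 0.161), then PABPC1 (0.215) and LIN37 (0.228). CASP6 was nearest to CA13 (0.0405), C2orf76 (0.0536) and FAM217B (0.0807). The genes nearest to GADD45B were FBRS (0.0340), MPG (0.0366) and C1orf198 (0.0444), and those nearest to BID were TMEM104 (0.0161), PLEKHG3 (0.0362) and ARL15 (0.0377). ATF3 had no neighbour as close as those of the other 3 genes. Such distances depend on the level: 1012 genes measured had at least 50 RPKM, 5404 had 5 to 50 and 6775 had 1 to 5. Nothing about ATF3 itself is read from them.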

How the data were processed

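Per the labels' protocols, each library took 3 µg of RNA, oligo-dT beads selected the messenger RNA, random primers made the cDNA, and fragments near 200 bp went through 10 PCR cycles. The authors deposited 1 RPKM value per gene and library. Bowtie, TopHat 1.4.0, Cufflinks 1.3.0 and the build Sscrofa10.2 are named per the submitters' processing notes. The read counter, gene lengths and treatment of reads with several matches are not given in the sources used here. A table of pig gene names gave 11374 entries a symbol.

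Whole reads were recovered from the RPKM values (Python 3.11.15, scipy 1.17.1). With the ratio of library totals most frequent among low genes, 1.03, 99.9% of 13134 low entries gave pairs of whole reads of at most 1000 within the rounding of the deposited values. Totals were estimated as 23608242 (CON) and 22863584 (H30) reads, the largest for which most lengths of 4105 entries came out whole within 0.01 bp (60.5%). The smallest reads giving a whole length, found for 96.0% of genes measured, are minimums. Recovery was tested on simulated data.

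The effect was log2 of heat over control RPKM with a pseudocount of 1, over a mean RPKM of at least 1, and genes were called by size (1.5-fold). Named are the 4 genes, the 2 highest and 2 lowest of each list (all of 5 or fewer) with any past 1.5-fold, and the 3 genes nearest each of the 4. The genes and lists were chosen with earlier results of these data known. Alternatives varied the pseudocount, scaling and filter. Some genes are not reported here. No sequences or coordinates are given.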

Additional observations from a re-analysis of the deposited data

How the results depend on the processing

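ATF3, CASP6, GADD45B and BID kept their direction in the alternatives run on them, which were 2 pseudocounts, 3 scalings and summed entries. Only the 3 scalings could have changed a direction. A pseudocount cannot turn the sign of the log2 ratio, and each symbol stood on 1 entry, so summing changed nothing. The scalings moved the median of all genes by little, so the kept directions say little about stability. ATF3 ran from 0.59 to 0.72 and stayed at least 1.5-fold higher. CASP6 was at 0.35 with a pseudocount of 5, under 1.5-fold, and reached 0.98 with one of 0.1. GADD45B ran from -0.49 to -0.27. BID ran from -0.60 to -0.22 and was past 1.5-fold with a pseudocount of 0.1 alone. The counts of 454 genes at least 1.5-fold higher and 313 lower changed to 934 and 565 (pseudocount 0.1), 53 and 59 (pseudocount 5), 785 and 482 (no filter), 97 and 69 (mean RPKM from 5 up) and 87 and 41 (entries with a symbol). Among the scalings, centring on the median gave 375 and 377, a trimmed mean gave 348 and 384, and leaving the 10 highest genes out of the totals gave 519 and 281. With an interval that excludes 1 the counts were 338 higher and 206 lower. Apart from fewer genes under the stricter filters, the cause was not tested. Of 210 counts for lists under alternatives 17 moved. These counts were all 0 or 1, so a move is 1 gene crossing the 1.5-fold line. Most counts were 0 in the main setting as well, so the unmoved ones say little about stability. Scalings put the median of all genes between -0.02 and 0.09. No paired analysis was possible because either group holds a single library. Depth limits CASP6 and BID most, which rest on at least 55 and 108 and at least 100 and 63 reads.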
